A study of Mus musculus with 2 samples.

Results

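The cells described here are the Mrgpra3 neurons of mouse cervical dorsal root ganglia, the small sensory neurons that carry the receptor for the itch-inducing drug chloroquine. They were selected by a rule on counts of unique molecular identifiers (UMIs, each standing for 1 captured molecule). A cell barcode was taken if it held at least 3000 UMIs in all, at least 2 UMIs of Mrgpra3 and at least 1 Mrgpra3 UMI per 10000. It also had to hold under 5 UMIs of Mrgprb4, under 3 of Trpm8 and under 5 of Nppb and Il31ra together per 10000, which mark other kinds of sensory neuron. The rule found 120 neurons among 27777 barcodes, 53 of 12067 in the Penk KO library and 67 of 15710 in the Penk ctrl library.

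Both groups were mice that carry Foxp3 CreER, a recombinase that tamoxifen activates and that is expressed from Foxp3, a gene of regulatory T cells. The Penk KO group was Foxp3 CreER; Penk fl/fl and the Penk ctrl group Foxp3 CreER; Penk fl/WT, so the controls too carry 1 floxed allele of Penk, the gene of the enkephalin precursor. All received tamoxifen and 3 days of imiquimod, which inflames the skin and is used as a model of psoriasis. Fixed ganglia were dissociated and read with pairs of probes per gene, and each group is 1 pooled library. The sources used here do not give the number, sex or age of the mice.

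Since each genotype has 1 library, differences between genotypes have no replicate check and were not tested. Intervals are exact 95% intervals that cover counting error only, not the spread between mice, preparations or cells. Levels are CPM, UMIs of a gene per 1000000 UMIs of the cells summed, and since each gene is read by its own probes, levels are compared between cells and libraries and not between genes. Whether fewer cells with a transcript or less of it per cell underlies a summed difference is shown by the values per cell, where given.

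Mrgpra3 neurons are a class of unmyelinated itch neurons whose endings lie in the skin. Chloroquine acts on MRGPRA3 and the peptide BAM8-22 on MRGPRX1, both receptors coupled to G proteins. Signals of such receptors run through phospholipase C and G protein subunits to channels such as TRPA1, and the neurons excite the spinal cord with glutamate and peptides. The mu opioid receptor, which enkephalins activate, is carried by many sensory neurons of the pain and itch pathways.

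The Mrgpra3 neurons were deep cells. Their UMIs per cell ranged from 3205 to 106832 with a median of 33477 in the Penk KO library, against 3306 to 115082 with a median of 42333 in the Penk ctrl library. All barcodes with at least 3000 UMIs had medians of 11566 and 14314.5. The neurons held 2171456 UMIs in the Penk KO library, 1.39% of that library, and 2856699 UMIs in the Penk ctrl library, 1.10%. They were 0.439% of Penk KO barcodes (Clopper-Pearson interval 0.329 to 0.574) and 0.426% of Penk ctrl barcodes (0.331 to 0.541), so their share differed by less than the counting error. Of the droplet barcodes, 4723 occurred in both libraries, and 21 of the 53 Penk KO neurons and 20 of the 67 Penk ctrl neurons lay in such a droplet.

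The rule cut a continuous range of Mrgpra3, whereas most barcodes lay far from the limit on Mrgprb4. In the Penk KO library 99 barcodes passed the depth and Mrgpra3 limits, of which 44 were left out by Mrgprb4 and 2 by Trpm8. In the Penk ctrl library 106 passed, of which 38 were left out by Mrgprb4 and 1 by Trpm8. No barcode was left out by Nppb and Il31ra in either library. The neuron lowest in Mrgpra3 stood at 1.03 per 10000 in each library, and the barcode closest below the limit at 0.978 in the Penk KO and 0.995 in the Penk ctrl library. Mrgprb4, which marks a class of C fibres tuned to gentle touch, was at 0 UMIs in 48 of 53 Penk KO and 59 of 67 Penk ctrl neurons. It reached at most 4.77 per 10000 in a Penk KO neuron and 3.03 in a Penk ctrl neuron. Among the barcodes it left out, the median was 26.7 in the Penk KO and 25.2 in the Penk ctrl library, and the lowest 11.9 and 5.01.

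**Figure D1:**
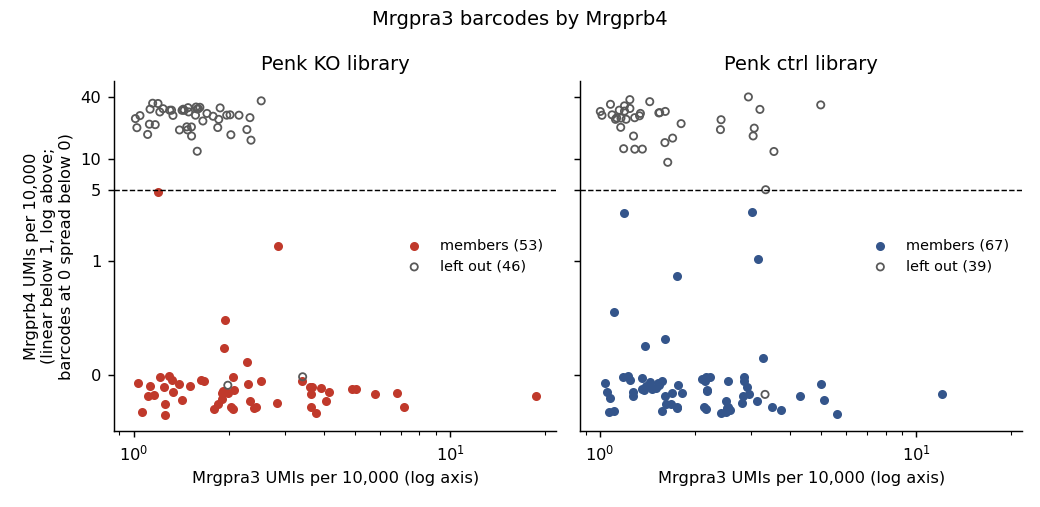
Mrgprb4 UMIs per 10000 (vertical axis, linear below 1 and log above, with barcodes at 0 spread below the 0 mark) against Mrgpra3 UMIs per 10000 (log axis) for every barcode past the depth and Mrgpra3 limits, 99 in the Penk KO panel and 106 in the Penk ctrl panel. Filled points are the 53 and 67 selected neurons, open points the barcodes left out, and the dashed line the limit of 5; most barcodes lie either at 0 or above 10.

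The barcodes left out by Mrgprb4 differed from the Mrgpra3 neurons in more than that gene. In them Hrh1 was at 0.402 CPM in the Penk KO library and listed at 0 in the Penk ctrl library, P2rx3 at 24.95 and 37.2 CPM and Trpv1 at 10.9 and 7.22 CPM. In the selected neurons Hrh1 was at 46.1 and 45.5 CPM, P2rx3 at 756 and 743 CPM and Trpv1 at 241 and 199 CPM. Mrgprx1 was alike in both sets, at 584 and 590 CPM in the barcodes left out and at 596 and 571 CPM in the selected neurons. Just outside the Mrgpra3 limit lay 20 Penk KO and 35 Penk ctrl barcodes with at least 2 Mrgpra3 UMIs, under 1 per 10000 and Mrgprb4 under its limit. They held P2rx3 at 512 and 474 CPM, Mrgprx1 at 219.6 and 310.8 CPM and the glial gene Apoe at 1519 and 3471 CPM, against 176 and 741 CPM in the selected neurons.

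The label could be checked with markers the rule did not use. Mrgprx1 (ENSMUSG00000070552, GRCm39 chromosome 7, 47670719 to 47677345, minus strand), the receptor of BAM8-22, had a UMI in 53 of 53 Penk KO and 63 of 67 Penk ctrl neurons. Its lowest, median and highest level per 10000 were 2.78, 5.76 and 16.4 in the Penk KO neurons and 0, 5.34 and 11.1 in the Penk ctrl neurons. The ranges overlap almost entirely. The 4 Penk ctrl neurons without a UMI were shallow, with a median of 8051.5 UMIs, yet all 8 Penk KO neurons under 10000 UMIs held one. Among those 4, satellite glia markers summed to as much as 116, Schwann cell markers to 202, and Nefh, a marker of large neurons, reached 42.1 per 10000. Hrh1 (chromosome 6, 114374478 to 114460261, plus strand), the H1 histamine receptor, had a UMI in 35 Penk KO and 44 Penk ctrl neurons. Depth moved with its detection: the median was 18360.5 and 16852 UMIs in neurons without an Hrh1 UMI and 49261 and 58393 in those with one.

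Carhsp1 (chromosome 16, 8476435 to 8490033, minus strand), a calcium-regulated heat-stable protein, was found in every selected neuron, at 2.41, 7.58 and 15.6 per 10000 in the Penk KO and 2.19, 7.38 and 13.1 in the Penk ctrl neurons (lowest, median, highest). P2rx3 (chromosome 2, 84827456 to 84867806, minus strand), an ATP-gated channel of sensory endings, was found in 52 Penk KO and 67 Penk ctrl neurons, with medians of 7.46 and 7.30 per 10000. All 4 of these markers were present in 34 Penk KO and 43 Penk ctrl neurons, exactly 3 in 19 and 21, and 2 in 0 and 3. Carhsp1 does not tell the neurons from other itch classes, since it was at 811 and 854 CPM in Mrgprb4 neurons and at 999 and 967 CPM in neurons gated on Nppb and Il31ra, against 753 and 747 CPM here. In 5 Penk ctrl neurons Mrgprx1 was below 1 per 10000, and 3 held at least 5 UMIs per 10000 of Th, which marks low-threshold mechanoreceptors, whereas no Penk KO neuron did either. Penk KO neurons carried other such markers. In 1 of them Nefh was at 50.4 and P2rx3 at 1.94 per 10000. Another held Mrgprd, which marks a separate class of skin neurons, at 5.17 and Mrgprb4 at 4.77 per 10000. The label rests on Mrgprx1, Hrh1 and P2rx3 together, and the name Mrgpra3 neurons is kept. Mrgpra3 itself (chromosome 7, 47238698 to 47251120, minus strand), which chose the cells, was at 223 CPM in the Penk KO and 202 CPM in the Penk ctrl neurons. Mrgpra3, Mrgprx1, Mrgprb5 and Mrgprb4 lie in 1 cluster of related receptor genes on chromosome 7, and the sources used here do not say how far their probes tell them apart.

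Mrgprx1 was not particular to the Mrgpra3 neurons. After every barcode was thinned to 3000 UMIs, a step that dropped no selected neuron, 71.7% of Penk KO neurons (57.7 to 83.2) and 74.6% of Penk ctrl neurons (62.5 to 84.5) kept a Mrgprx1 UMI. In Mrgprb4 neurons, gated on at least 5 Mrgprb4 UMIs per 10000, the shares were 70.8% and 72.4%. In Pvalb neurons, the large proprioceptive type that should lack itch receptors, they were 1.09% and 1.41%, a level that can be read as background. That gate also held Mrgpra3 and Mrgprd each under 1 UMI per 10000, which can lower these shares. Unthinned, the shares were 100% and 94.0% in the Mrgpra3 neurons and 5.20% and 7.14% in the Pvalb neurons, at median depths of 10184 and 12830 UMIs. For Hrh1 the thinned shares were 17.0% and 11.9% in Mrgpra3 neurons, 0% and 0% in Mrgprb4 neurons, 5.41% and 5.23% in neurons gated on Nppb and Il31ra, and 0.410% and 0.352% in Pvalb neurons.

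Barcodes rich in Mrgprx1 also included some with no Mrgpra3 at all. At least 5 Mrgprx1 UMIs per 10000 were found in 131 Penk KO and 160 Penk ctrl barcodes, of which 29 and 37 were selected neurons and 55 and 57 held at least 5 Mrgprb4 UMIs per 10000. The other 47 and 66 were neither, and 33 and 51 of these had no Mrgpra3 UMI. These 33 and 51 barcodes had lower median depths of 8763 and 10100 UMIs, held Mrgprd, the receptor of a separate class of skin neurons, at 930 and 701 CPM, and had Hrh1 at 12.4 and 5.46 CPM.

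**Figure D2:**
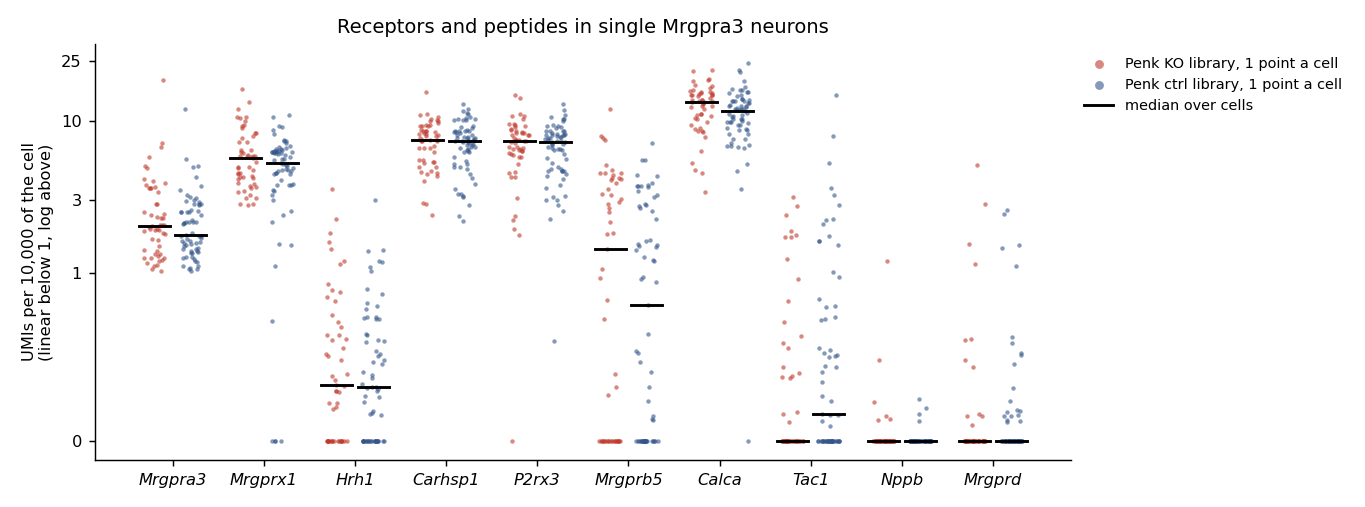
UMIs per 10000 of the cell (linear below 1, log above) for 10 genes in each of the 53 Penk KO and 67 Penk ctrl neurons, with a bar at the median over cells. Mrgprx1, Carhsp1, P2rx3 and Calca were present in nearly all cells, Mrgprb5 and Tac1 ranged from 0 to above 10 in at least 1 library, and Nppb and Mrgprd had medians of 0.

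Penk, the targeted gene (chromosome 4, 4132722 to 4141856, minus strand), checked the labels over whole libraries. It had 4 UMIs in the Penk KO and 582 UMIs in the Penk ctrl library, or 0.0256 and 2.25 CPM. Foxp3 had 5 and 10 UMIs in the same libraries, and whether the difference in Penk arose in cells that express Foxp3 was not tested. Gated neurons of the Penk ctrl library held Penk UMIs too, in 19 Pvalb, 5 Nppb and Il31ra and 4 Mrgprd neurons. In the same gates of the Penk KO library 0 neurons held one. In the Mrgpra3 neurons Penk had 0 UMIs in the Penk KO and 1 UMI in the Penk ctrl library, so at this depth no difference in Penk within these neurons was detectable. The Clopper-Pearson upper bound for 0 of 53 cells is 6.72% of cells with a UMI. Of the enkephalin receptors, Oprm1, the mu opioid receptor (chromosome 10, 6708506 to 6988198, plus strand), had a UMI in 53 of 53 Penk KO and 66 of 67 Penk ctrl neurons. Its lowest, median and highest level per 10000 were 0.622, 4.91 and 9.06 in the Penk KO neurons and 0, 5.18 and 11.7 in the Penk ctrl neurons. Summed, it was at 498 and 526 CPM, a ratio of 0.947 (0.875 to 1.03), against 210 and 183 CPM in all other barcodes with at least 3000 UMIs. Oprm1 was not particular to the Mrgpra3 neurons. Thinned to 3000 UMIs, 75.5% of Penk KO and 80.6% of Penk ctrl Mrgpra3 neurons kept an Oprm1 UMI. The shares were 70.8% and 75.9% in Mrgprb4 neurons and 77.0% and 80.5% in neurons gated on Nppb and Il31ra. In neurons gated on Mrgprd they were lower, at 27.45% and 25.4%. Oprd1, the delta receptor, had 3 and 5 UMIs, Oprl1, the nociceptin receptor, 2 and 7 UMIs, and Oprk1, the kappa receptor, 0 in each library.

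The genes that set the neurons apart from the other barcodes are a description, since the cells were selected on Mrgpra3. Of 6915 genes with at least 20 CPM in the neurons of both libraries, 263 (3.8%) were at least 2-fold higher than in the other barcodes of the same library, in both libraries, with 5 CPM added to each level. The 15 with the highest smaller fold were Mrgpra3, Tmprss11c, Mrgprx1, Car8, Ccn3, Cpb1, Hrh1, Ovol2, Rspo1, Mst1r, Tnr, Crip1, Agtr1b, Lcorl and Cyp4b1. Tmprss11c (chromosome 5, 86379340 to 86437167, minus strand), a membrane serine protease, was at 162 and 140 CPM in Penk KO and Penk ctrl neurons against 4.58 and 3.73 CPM in the other barcodes. Ccn3, a secreted matrix-associated protein, was at 155 and 152 CPM against 13.4 and 11.5 CPM. Cpb1, a carboxypeptidase, was at 115 and 108 CPM against 10.2 and 10.0 CPM, and Mst1r, a receptor tyrosine kinase, at 57.1 and 55.0 CPM against 4.95 and 4.28 CPM. Ovol2, a zinc finger factor, was at 47.0 and 38.2 CPM against 2.05 and 1.59 CPM.

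Among itch receptors, 7 of 12 genes were past the 2-fold limit in both libraries, where 3.8% of all genes were, and Mrgpra3 is 1 of the 7 through the rule. Genes entered these counts through their level in the neurons, so the counts describe and support nothing. The 7 were Mrgpra3, Mrgprx1, Hrh1, Mrgprb5, Osmr, Il4ra and Ptgdr. Osmr, a subunit of the oncostatin M and interleukin 31 receptors, was at 217 and 194 CPM against 71.6 and 50.9 CPM in the other barcodes. Its folds were 1.57 and 1.61 over Mrgprb4 neurons, but 0.211 and 0.211 over neurons gated on Nppb and Il31ra. Il31ra, which pairs with Osmr for interleukin 31, was kept low by the rule, at 16.1 and 9.45 CPM. Il4ra, the receptor subunit shared by interleukins 4 and 13, was at 69.1 and 83.3 CPM against 27.4 and 29.5 CPM. Mrgpra1, a close relative of Mrgpra3, had 5 UMIs in the neurons of each library.

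Downstream of the receptors, 7 of 26 genes of phospholipase C signalling were past the limit, beside the same 3.8% of all genes. Plcb3, the phospholipase C isoform tied to itch receptors in mouse, was at 1092 and 1079 CPM against 405 and 369 CPM in the other barcodes. Gna14, a G protein alpha subunit of the Gq family, was at 336 and 367 CPM against 131 and 112 CPM. The others were the kinase Prkcd, the diacylglycerol kinases Dgkh and Dgkz, the regulator Rgs4 and the receptor kinase Grk5. Of 9 TRP, Ano and Piezo genes 2 were past it, among them Trpv1, the capsaicin receptor, at 241 and 199 CPM against 83.6 and 69.1 CPM. Of 23 channel genes 6 were past it. They were the sodium channels Scn10a and Scn11a and the subunit Scn3b, the calcium channel subunit Cacna2d2 and the potassium channels Kcnk18 and Kcnt1. Scn10a was at 2072 and 1933 CPM against 883 and 786 CPM. The other barcodes include glia and large neurons, so these genes need not be particular to the Mrgpra3 neurons. Set beside Mrgprb4 neurons, the folds were 1.22 and 1.29 for Plcb3, 0.758 and 0.861 for Gna14, 11.8 and 12.7 for Trpv1 and 0.981 and 0.945 for Scn10a. Set beside neurons gated on Mrgprd, they were 0.881 and 0.858, 0.877 and 0.966, 5.92 and 4.43, and 1.01 and 0.947, in the same order. Over neurons gated on Nppb and Il31ra, Trpv1 was lower, with folds of 0.6885 and 0.637. The folds over that gate were 1.79 and 1.84 for Plcb3, 0.882 and 1.02 for Gna14 and 1.56 and 1.55 for Scn10a.

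For transmission, the neurons carried glutamate and calcitonin peptide genes. Slc17a6, the vesicular glutamate transporter, was at 439 and 436 CPM against 341 and 326 CPM. Calca, the gene of calcitonin gene-related peptide, was at 1331 and 1219 CPM against 482 and 403 CPM, and was the only gene past the limit of the 9 peptide and transmitter genes tested. It ranged from 3.39 to 21.9 per 10000 in Penk KO and from 0 to 24.3 in Penk ctrl neurons, with medians of 13.4 and 11.6. Tac1, the substance P precursor, was low, at 48.4 and 62.3 CPM against 260 and 210 CPM, with a UMI in 22 of 53 and 38 of 67 neurons. Nmb, neuromedin B, was at 332 and 343 CPM. Grp, gastrin-releasing peptide, had 0 UMIs in the neurons of each library.

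The Mrgpra3 neurons were also set beside 3 gates of other skin and itch neurons, with no test. Further classes were not gated. A gene could enter these counts through the only group where it was high, as Htr1f with 0 UMIs in the Mrgpra3 neurons. The genes used to select the cells differ through that selection, so the counts are a description. Compared with the Mrgprb4 gate (120 Penk KO and 145 Penk ctrl cells), 173 of 7365 genes (2.35%) were at least 2-fold higher and 167 (2.27%) at least 2-fold lower in both libraries. P2rx3, P2rx2 and the capsaicin receptor Trpv1 were among the higher ones. Other purinergic receptors ran both ways, with folds of 1.85 and 1.89 for P2ry2 and 0.578 and 0.551 for Adora2b. P2rx3 was at 87.0 and 70.9 CPM in the Mrgprb4 gate, P2rx2, its partner in mixed ATP-gated channels, at 0.681 and 1.84 CPM against 32.7 and 32.6 CPM in the Mrgpra3 neurons, and Trpv1 at 20.4 and 15.6 CPM. Hrh1 had 0.511 and 0.838 CPM in the Mrgprb4 gate. Ptgir, the prostacyclin receptor, was at 113 and 119 CPM in the Mrgpra3 neurons against 9.87 and 7.04 CPM. Trpa1 ran the other way, at 55.7 and 47.6 CPM in the Mrgpra3 neurons against 175 and 154 CPM. Scn2b, a sodium channel subunit, was at 11.1 and 8.75 CPM against 491 and 428 CPM, and Kcnq3, a potassium channel of the M current, at 29.5 and 22.1 CPM against 157 and 148 CPM.

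Compared with the Nppb and Il31ra gate (222 Penk KO and 287 Penk ctrl cells), 312 of 7581 genes (4.12%) were higher and 297 (3.92%) lower in the Mrgpra3 neurons. Calca was at 134 and 80.3 CPM in that gate and Mrgprx1 at 49.0 and 48.8 CPM. Over that gate the folds were 1.67 and 1.96 for P2rx3, but 0.510 and 0.542 for P2rx2 and 0.6885 and 0.637 for Trpv1. Cysltr2, the leukotriene receptor, was at 4.61 and 12.6 CPM in the Mrgpra3 neurons against 559 and 501 CPM, and Htr1f, a serotonin receptor, had 0 UMIs against 279 and 248 CPM. Compared with the Mrgprd gate (787 Penk KO and 911 Penk ctrl cells), 319 of 7446 genes (4.28%) were higher and 288 (3.87%) lower. Etv1, an ETS transcription factor, was at 641 and 671 CPM in the Mrgpra3 neurons against 21.5 and 23.6 CPM, and Gap43, a growth cone protein, at 922 and 736 CPM against 27.8 and 25.1 CPM. Lpar3, a lysophosphatidic acid receptor, was at 3.22 and 9.10 CPM against 408 and 433 CPM. P2rx3 was higher in the Mrgprd gate, at 1173 and 1140 CPM.

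**Figure D3:**
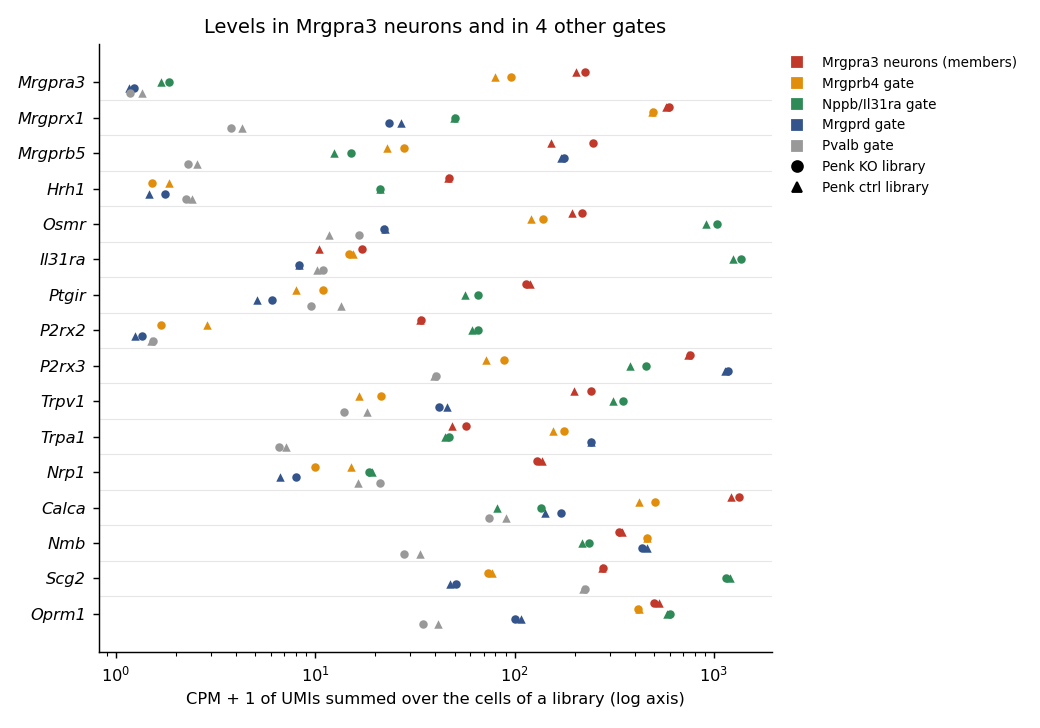
CPM plus 1 (log axis) of 16 genes in the Mrgpra3 neurons and in the Mrgprb4, Nppb and Il31ra, Mrgprd and Pvalb gates, with circles for the Penk KO and triangles for the Penk ctrl library. For many genes the points of both libraries lie close together, but not for all. Mrgprb5 was at 245 and 151 CPM in the Mrgpra3 neurons, and Calca at 134 and 80.3 CPM in the Nppb and Il31ra gate. The gates differ by gene, as for Hrh1 at 46.1 and 45.5 CPM in the Mrgpra3 neurons against 0.511 and 0.838 CPM in the Mrgprb4 gate.

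Mrgprb5 divided the Mrgpra3 neurons. Mrgprb5 (chromosome 7, 47817731 to 47818767, minus strand), a receptor of the Mrgpr family next to Mrgprb4, had a UMI in 34 of 53 Penk KO and 44 of 67 Penk ctrl neurons. It was at 0, 1.43 and 12.1 per 10000 in the Penk KO and at 0, 0.807 and 7.22 in the Penk ctrl neurons (lowest, median, highest). At least 1 UMI per 10000 was found in 28 Penk KO neurons (52.8%, 38.6 to 66.7) and 30 Penk ctrl neurons (44.8%, 32.6 to 57.4), shares that differ by less than the counting error. This division was made after the values had been seen. The Mrgprb5-high neurons were deeper, with median UMIs of 46030 and 54570 against 22720 and 28570 in the Mrgprb5-low neurons.

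A small set of genes differed between Mrgprb5-high and Mrgprb5-low neurons in both libraries. The 7825 genes compared had at least 20 CPM in the Mrgprb5-high or Mrgprb5-low neurons of at least 1 library. A gene could thus enter through the only group where it was high, so the counts are a description. In the Mrgprb5-high neurons of both libraries 10 genes (0.128%) were at least 2-fold higher, with 5 CPM added, Mrgprb5 itself through the division. There 5 (0.0639%) were at least 2-fold lower, and 1 gene was past 2-fold in opposite directions. The 5 lower genes were Tagln2, Adcyap1, Gfra3, Bdnf and Serpinb1a. Tagln2, an actin-binding protein, was at 24.0 and 20.9 CPM in Mrgprb5-high neurons against 218 and 147 CPM in Mrgprb5-low neurons. Bdnf, a neurotrophin, was at 122 and 99.8 CPM against 354 and 379 CPM, and Adcyap1, the precursor of the peptide PACAP, at 9.31 and 7.68 CPM against 53.3 and 33.7 CPM. Some of these sums rest on few cells: 1 Penk KO neuron gave 57.5% of the Adcyap1 UMIs of the Mrgprb5-low neurons and 1 Penk ctrl neuron 36.4% of their Tagln2 UMIs.

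Of the 9 other higher genes, Fabp7 and Sox10 are on the list of satellite glia markers. Fabp7, a fatty acid binding protein of glia, was at 38.0 and 322 CPM against 13.6 and 42.1 CPM, and Sox10, a glial transcription factor, at 10.9 and 25.8 CPM against 2.27 and 9.13 CPM. Apoe, a lipid carrier on the same list, was not past 2-fold in both libraries, at 212 and 1274 CPM against 124 and 204 CPM. The part of glial RNA in these differences was not tested. Cdk18, a kinase, was at 46.5 and 42.6 CPM against 1.13 and 16.9 CPM. Mrgprx1 was at 534 and 571 CPM in Mrgprb5-high and at 688 and 572 CPM in Mrgprb5-low neurons, and Hrh1 at 46.5 and 51.6 CPM against 45.4 and 39.3 CPM. Trpv1 was at 183 and 196 CPM against 325 and 201 CPM. Trpa1, the channel activated by irritants, ran in opposite directions, at 64.4 against 43.1 CPM in the Penk KO and 31.4 against 63.9 CPM in the Penk ctrl library.

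Between the genotypes, most genes of the Mrgpra3 neurons were close in level. Of 7188 genes with a mean of at least 20 CPM over both libraries, 34 (0.473%) were at least 1.5-fold higher and 102 (1.42%) at least 1.5-fold lower in Penk KO neurons. The median ratio was 0.990, and percentiles 5 and 95 of the ratios were 0.765 and 1.24. A level of 20 CPM is 43.4 UMIs in the Penk KO and 57.1 UMIs in the Penk ctrl neurons, so the ratios of the lowest genes have wide intervals. With each cell given equal weight, 19 of the 34 and 76 of the 102 were still past 1.5-fold.

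The genes that name the neurons hardly differed. Mrgprx1 had a ratio of 1.04 (0.970 to 1.12), Hrh1 1.01 (0.772 to 1.32), Carhsp1 1.01 (0.944 to 1.08), P2rx3 1.02 (0.954 to 1.09) and Calca 1.09 (1.04 to 1.15). Over the itch list, 1 of 13 genes tested was higher and 0 lower, beside 0.473% and 1.42% of all genes. The median log2 ratio of the list was 0.02, beside -0.01 over all genes tested. Il13ra1, a receptor subunit for interleukin 13, was at 22.1 and 32.9 CPM, a ratio of 0.672 (0.464 to 0.961), just inside the limit, and 0.544 with each cell weighted equally. With UMIs summed, none of the tested genes was past 1.5-fold among 26 of phospholipase C signalling (median log2 -0.02), 9 TRP, Ano and Piezo (0.14), 24 channels (-0.07), 11 peptides and transmitters (-0.05), 9 purinergic (0.01), 9 opioid (-0.02), 13 cytokine receptor and Jak-Stat genes (-0.08), 8 immediate early genes (-0.07) and 9 nerve injury genes (-0.09). Trpv1 was at 241 and 199 CPM, a ratio of 1.21 (1.08 to 1.37), and Gap43 at 922 and 736 CPM, with an interval of 1.18 to 1.33, both under the fold used. Junb, an immediate early gene, was at 28.6 and 42.7 CPM, 0.669 (0.484 to 0.915). With each cell weighted equally, 1.89% of the same 7188 genes were past 1.5-fold higher and 3.81% lower, and some genes of these lists were among them. They include Junb at 0.475, Gnb4, a G protein beta subunit, at 0.573, Tac1 at 0.464, the ATP receptors P2ry2 at 1.55 and P2rx4 at 0.586, and Gadd45a, a stress gene, at 1.59. None of the 9 TRP, Ano and Piezo, 9 opioid or 13 cytokine receptor and Jak-Stat genes was past 1.5-fold under either weighting.

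Mrgprb5 was the itch receptor past the limit. It had 532 UMIs and 245 CPM in Penk KO neurons and 430 UMIs and 151 CPM in Penk ctrl neurons, a ratio of 1.63 (1.43 to 1.85), against 1.19 in the other barcodes. Within the Mrgprb5-high neurons it was at 402 and 281 CPM, a ratio of 1.43 (1.26 to 1.64), with medians of 4.02 and 2.82 per 10000. Those cells were chosen by Mrgprb5 itself, so that ratio is a description. In the Mrgprd gate, which also carries Mrgprb5, it was at 177 and 170 CPM. Whether the ratios of the Mrgpra3 neurons and of that gate differ was not tested.

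Genes of neuronal identity and trophic support included 2 that were lower. Runx1 (chromosome 16, 92398354 to 92623037, minus strand), a transcription factor of nonpeptidergic sensory neurons, was at 29.9 and 58.5 CPM, a ratio of 0.512 (0.378 to 0.686), and had a UMI in 30 of 53 Penk KO and 47 of 67 Penk ctrl neurons. With UMIs summed it was the only 1 of 17 transcription factors tested past the limit, beside 1.42% of all genes that were lower. Its ratio was 0.896 in the other barcodes. Gfra3, the receptor subunit for the growth factor artemin, was at 27.2 and 60.9 CPM, 0.446 (0.326 to 0.603), with a UMI in 17 and 31 neurons, against 1.23 in the other barcodes. Within the Mrgprb5-low neurons, where most of its UMIs lay, Gfra3 was at 47.6 and 99.7 CPM, 0.478 (0.330 to 0.678), and within the Mrgprb5-high neurons it had 17 and 32 UMIs, 0.590 (0.307 to 1.10). It was the only 1 of 10 trophic receptor genes tested past the limit, beside 1.42% of all genes that were lower.

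Car8 (chromosome 4, 8141533 to 8239088, minus strand), an inhibitor of the calcium release channel ITPR1, is among the 15 leading genes of the neurons and was lower in Penk KO neurons. It had 221 and 522 UMIs, or 102 and 183 CPM, a ratio of 0.557 (0.474 to 0.653). Its lowest, median and highest level per 10000 were 0, 0.736 and 6.80 in Penk KO and 0, 1.53 and 6.14 in Penk ctrl neurons, so the ranges overlap and the medians differ. Car8 was lower in the other barcodes too, at 2.79 and 7.73 CPM, a ratio of 0.361. With each neuron given equal weight the ratio was 0.758, inside the limit. Car8 begins 3999.68 kb from the end of Penk on the same chromosome.

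Most interferon-induced genes were within 1.5-fold. Of 25 tested, 2 were higher and 0 lower, beside 0.473% and 1.42% of all genes, with a median log2 ratio of 0.16, and the interferon list in the other barcodes had a median ratio of 1.10. Ifit3, an antiviral effector, was at 139 and 71.8 CPM, a ratio of 1.94 (1.62 to 2.33), with 1 Penk KO neuron giving 15.2% of its UMIs. Its lowest, median and highest level per 10000 were 0, 0.832 and 5.13 in Penk KO and 0, 0.517 and 3.71 in Penk ctrl neurons. In the Mrgprb5-high neurons the ratio was 2.71 (2.13 to 3.47) and in the Mrgprb5-low neurons 1.01 (0.733 to 1.38), a difference that was not tested. Ifit3b, its close copy, was at 34.5 and 22.1 CPM, 1.57 (1.11 to 2.23), and the probes may not tell the copies apart. Its ratio was inside the limit with each cell weighted equally, at 1.07, and without the neurons highest in glial markers, at 1.46. Ifit1 and Oasl2 were at 0.978 (0.882 to 1.08) and 1.02 (0.921 to 1.13).

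Other genes with high ratios were low in level. Trappc3l, a trafficking complex subunit, was at 33.2 and 16.5 CPM, 2.02 (1.38 to 2.98), Tecta at 47.0 and 24.9 CPM, 1.89 (1.38 to 2.60), and Plek2 at 27.2 and 14.7 CPM, 1.85 (1.22 to 2.81). Ost4, Ppat, Dcun1d2, Dmac2l and Shkbp1 had ratios between 1.64 and 1.78.

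Of the 10 lowest ratios, 2 were of genes on the marker list of satellite glia, the cells that wrap neuron bodies, namely Fabp7 and Apoe. All 10 genes were lower in the neurons than in the other barcodes of both libraries. Atp1b2, for example, was at 5.53 and 39.6 CPM against 107 and 113 CPM. The 10 were Atp1b2, Fabp7, Sfrp5, Apoe, Cdh1, Mt2, Ttyh1, Gpam, Abca8a and Fxyd1, with ratios between 0.140 and 0.326. Apoe was at 176 and 741 CPM, a ratio of 0.237 (0.212 to 0.265), with medians of 0.592 and 1.48 per 10000 and highest values of 32.9 and 226. Fabp7 was at 28.1 and 183 CPM, 0.154 (0.116 to 0.201), and its median over cells was 0 in each library. The medians differed less than the sums, and single Penk ctrl neurons gave 20.2% of the Apoe and 26.4% of the Fabp7 UMIs.

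The 8 markers of satellite glia summed to 337 CPM in Penk KO and 1151 CPM in Penk ctrl neurons, against 3284 and 3704 CPM in the other barcodes. Of the 4 tested, 3 were lower, beside 1.42% of all genes, with a median log2 ratio of -1.61. Per cell the sum was 0, 2.03 and 58.6 per 10000 in Penk KO and 0.314, 2.87 and 305 in Penk ctrl neurons, and at least 20 in 5 and 9 of them. The Schwann cell markers summed to 986 and 1155 CPM, with 1 of 4 lower. Of the 102 lower genes, 49 stood at least 2-fold higher in the other barcodes than in the neurons, as did 311 of all 7188 genes tested. Without the 25% of neurons of each library highest in the satellite and Schwann markers summed, 60 of the 102 were still lower by 1.5-fold. Of the 10 lowest, 5 were then inside the limit, with Apoe at 0.675 and Fabp7 at 0.815. The other 5 were still past it, Atp1b2 at 0.265, Sfrp5 at 0.261, Cdh1 at 0.186, Mt2 at 0.139 and Ttyh1 at 0.492. Runx1 had 0.440, Gfra3 0.361, Car8 0.478 and Mrgprb5 1.93. Some of these ratios rest on few UMIs. Over all neurons of the Penk KO and Penk ctrl libraries there were 12 and 113 for Atp1b2, 22 and 142 for Sfrp5, 18 and 96 for Cdh1, and 23 and 107 for Ttyh1. A single Penk KO neuron gave 54.55% of the Sfrp5 UMIs and a single Penk ctrl neuron 39.6% of the Cdh1 UMIs. Cdh1 stood at 480 and 486 CPM in neurons gated on Mrgprd. The part of glial RNA in all these ratios was not tested. Macrophage markers summed to 17.0 and 29.4 CPM, T cell markers to 0.921 and 1.75 CPM, fibroblast markers to 66.8 and 107 CPM and endothelial markers to 22.6 and 62.3 CPM.

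Of 9 glucocorticoid-responsive genes tested, 0 were higher and 3 lower, beside 0.473% and 1.42% of all genes. All 3 were still past the limit without the neurons highest in glial markers, Mt1 at 0.464, Mt2 at 0.139 and Cdkn1a at 0.592. Whether glial RNA plays a part in them was not tested. Mt1, a metallothionein, was at 24.0 and 54.3 CPM, 0.441 (0.316 to 0.608), against 191 and 218 CPM in the other barcodes. Mt2, its relative, was at 9.67 and 34.7 CPM, 0.279 (0.165 to 0.450). It had only 21 and 99 UMIs, in 11 and 30 neurons, and stood at 100.5 and 120.1 CPM in the other barcodes. Cdkn1a, a cell cycle inhibitor, was at 126 and 190 CPM, 0.665 (0.573 to 0.771), against 79.1 and 84.4 CPM in the other barcodes. That ratio lies close to the limit. Under other weightings, filters and gates, thinning left aside, it ranged from 0.586 to 0.829 and so was not always past the limit. Fkbp5, a cochaperone of the glucocorticoid receptor, was at 111 and 91.7 CPM, 1.21 (1.01 to 1.44).

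**Figure D4:**
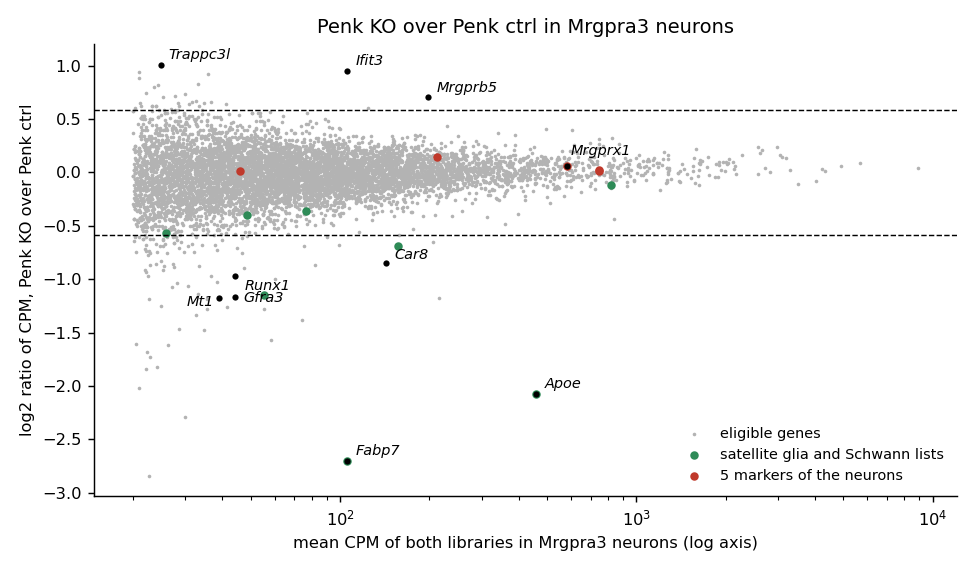
Log2 ratio of CPM, Penk KO over Penk ctrl, against the mean CPM of both libraries (log axis) for the 7188 genes tested in the Mrgpra3 neurons, with dashed lines at 1.5-fold. The 5 markers of the neurons lie near 0, Mrgprb5, Ifit3 and Trappc3l above the upper line, and Car8, Runx1, Gfra3, Mt1, Apoe and Fabp7 below the lower one.

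**Figure D5:**
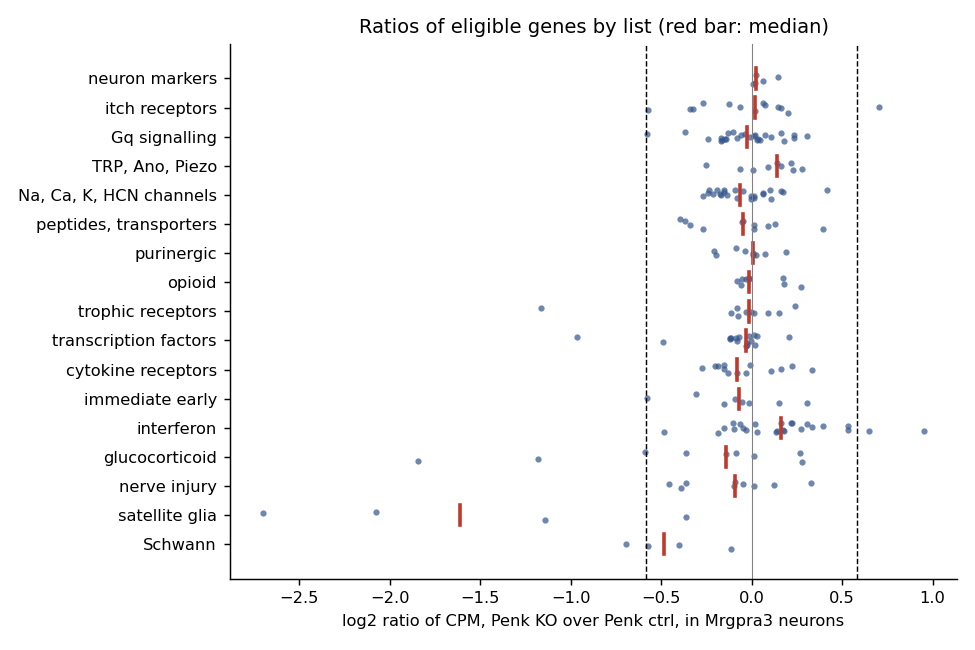
Log2 ratio of CPM, Penk KO over Penk ctrl, in the Mrgpra3 neurons for each tested gene of 17 lists, with a red bar at the median of the list and dashed lines at 1.5-fold. The receptor, channel and signalling lists centre near 0, and the satellite glia list has a median of -1.61.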

How the data were processed

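The authors deposited a matrix of whole UMI counts for each library, with no normalization. Per the file headers they were made with Cell Ranger 8.0.1, and per the labels' protocols with version 7.0 against GRCm39; the submitters' processing notes also name Seurat, without its role. Barcodes had already been called as cells (lowest total 497 and 496 UMIs, 19059 genes). Doublets were not removed, because the gate is fixed.

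UMIs of the selected cells were summed per library and divided by their total (CPM) in Python 3.11.15 with numpy 2.4.6, scipy 1.17.1 and pandas 2.3.3, which also gave the exact Poisson, conditional binomial and Clopper-Pearson intervals; UMIs of 1 cell are not independent. Totals were 2171456 and 2856699 UMIs. Genes with a mean of at least 20 CPM were compared. Other barcodes are those with at least 3000 UMIs that were not selected. Gates used 5 UMIs per 10000 of their marker. The Pvalb gate also required under 1 per 10000 of Mrgpra3 and of Mrgprd, and the Mrgprd gate under 1 of Mrgpra3. Scripts were tested on simulated data. Positions are from GENCODE on GRCm39 (130 of 130 named genes matched by ID).

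Named genes are the markers and gate genes, the opioid genes, the 15 leading genes of the neurons, the 10 highest and 10 lowest ratios past 1.5-fold under both cell weightings, and the 3 highest in level and 2 highest and lowest in ratio of each list; genes of the gate comparisons, of the Mrgprb5 division and others named beside a list were chosen after their values were seen. The selected cells and all lists were chosen with earlier results of these data known. Alternatives were other weightings, filters, folds, depths and gates. Some items are not reported here.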

Additional observations from a re-analysis of the deposited data

How the results depend on the processing

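The counts of genes past 1.5-fold between genotypes depended strongly on filters and on the number of UMIs. Against 34 higher and 102 lower, there were 145 and 330 with each cell weighted equally in the 20 CPM filter too, 103 and 280 with a mean of at least 10 CPM, 3 and 16 with at least 50 CPM, 317 and 550 at the lower fold tried, and 1 and 32 at 2-fold. With each neuron thinned to 3000 UMIs there were 1154 and 1315, where few UMIs a gene remain by construction. With at least 4 Mrgpra3 UMIs and 2 per 10000, which left 19 Penk KO and 22 Penk ctrl neurons, there were 227 and 307. Droplets of 1 library only gave 87 higher, and leaving out the 25% highest in glial markers gave 67 higher. Other depth limits, Mrgprb4 under 2 per 10000 and leaving out neurons with Mrgprd left both counts within 1.5 times, as did leaving out neurons without Mrgprx1 or the deepest neuron of each library, which were chosen after seeing the data. The share of barcodes was 0.158% and 0.14% under the stricter Mrgpra3 limit, and 1.0% and 0.921% of barcodes with at least 3000 UMIs. The count of 263 genes higher than in the other barcodes stayed between 261 and 272. Of 27 named genes past 1.5-fold, 3 changed direction under some alternative, Gpam in droplets of 1 library (1.08) and, with thinned cells, Fxyd1 (1.77) and Ifit3b (0.181); the cause was not tested. Of the other 101 named genes, 62 changed side of 1 under at least 1 alternative. Of the other values of named genes under an alternative, 1219 moved by less than the error and 177 by more. No paired analysis was possible because each group is 1 library. With 1 library per group, differences between genotypes, mice and preparations cannot be told apart, and genes near 20 CPM rest on about 43.4 and 57.1 UMIs.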
